A study of Homo sapiens with 3 samples.

Results

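The genes for the cytokines IL6, LIF, IL1A and IL1B and for the chemokines CXCL1, CXCL2, CXCL3, CXCL8, CCL2 and CCL20 were described across the 3 RNA-seq libraries of the series. These 10 of the 60671 genes in the table were selected by name, with earlier results of these libraries known. Their levels and differences are therefore given as a description, with no test. All 10 were found once under their names, all 10 passed the filter on low values described below, and all 10 stood at 0.3 TPM or more in every library.

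Each population had 1 library. iOVCAR-3-OSKM cells were derived from OVCAR-3 by transduction with OCT4, SOX2, KLF4 and c-MYC carried by Sendai virus. Tra-1-60-positive colonies were picked and grown on mitomycin-treated mouse embryonic fibroblasts in an embryonic stem cell medium with basic fibroblast growth factor, and the library represents 1 clone by the name of its column. SP is the side population, which was sorted out of OVCAR-3 for its efflux of the Hoechst dye and which is a fraction of the line and not a separate line. OVCAR-3 is the parental human line of high-grade serous ovarian carcinoma and was grown in a medium with fetal bovine serum and without feeder cells. All 3 populations share the OVCAR-3 genome, and culture, sorting and feeder cells differ between them in ways that cannot be told apart from the population.

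IL6 and LIF belong to a cytokine family that signals through receptors built around the shared chain gp130, which is encoded by IL6ST, and through the kinase JAK1 to the transcription factor STAT3. IL1A and IL1B bind IL1R1, which pairs with IL1RAP and activates NF-kappaB through the adaptor MYD88. CXCL1, CXCL2, CXCL3 and CXCL8 carry the ELR motif and attract neutrophils through CXCR1 and CXCR2, whereas CCL2 attracts monocytes through CCR2 and CCL20 attracts CCR6-positive lymphocytes and dendritic cells. In ovarian carcinoma, tumour cells are a known source of IL6 and CXCL8, and both proteins accumulate in the ascites fluid. The messengers of this group are typically short-lived, are induced by NF-kappaB, AP-1 and C/EBP factors, and are degraded through AU-rich elements.

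Promoter sequence is shown because 5 of the members share an NF-kappaB element next to their start sites. These 5 were only in part the genes called higher in iOVCAR-3-OSKM against OVCAR-3 by the threshold defined below. IL6, CXCL2 and CXCL3 carry the motif and were past the threshold in that comparison. CXCL1 and CXCL8 carry it and were within the threshold in every comparison. CCL20 and IL1B do not carry it and were past the threshold in iOVCAR-3-OSKM against OVCAR-3. A relation of the motif to the differences was not tested. RefSeq promoters on build GRCh38.p14, covering 250 bases before to 50 bases after a start site, were matched for 8 of the 10 genes, with 2 start sites for IL1A. A RelA-type NF-kappaB motif, written GGANTTTCC and searched on both strands, was present in 5 of these 8 genes, against 1.64% of all 35116 promoters. It began 78 bases before the start site in CXCL1 and CXCL3, 77 bases in CXCL2, 91 bases in CXCL8 and 72 bases in IL6. The first 3 lines below are the CXCL1, CXCL2 and CXCL3 stretches around it, on chr4:73869285-73869353 (plus strand), chr4:74099234-74099302 (minus strand) and chr4:74038729-74038797 (minus strand). They are followed by CXCL8 on chr4:73740422-73740496 (plus strand) and IL6 on chr7:22727035-22727146 (plus strand). Capitals mark the NF-kappaB motif and, before it, an AP-1 motif (TGANTCA) in CXCL8 and a C/EBP motif (TTGCNNAA) in IL6.
CXCL1: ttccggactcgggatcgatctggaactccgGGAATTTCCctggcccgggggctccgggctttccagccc
CXCL2: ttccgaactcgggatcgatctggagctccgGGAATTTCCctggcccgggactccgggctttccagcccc
CXCL3: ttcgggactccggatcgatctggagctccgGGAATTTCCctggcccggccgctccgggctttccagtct
CXCL8: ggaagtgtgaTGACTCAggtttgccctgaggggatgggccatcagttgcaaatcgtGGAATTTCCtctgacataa
IL6: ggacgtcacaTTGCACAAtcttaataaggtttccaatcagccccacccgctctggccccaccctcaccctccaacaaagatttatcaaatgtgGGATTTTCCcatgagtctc

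The CXCL1, CXCL2 and CXCL3 stretches are near copies of each other. Over the 250 bases before the start site, CXCL1 and CXCL3 were identical at 81.4% of aligned positions, CXCL2 and CXCL3 at 73.3% and CXCL1 and CXCL2 at 70.4%, while CXCL8 was identical to these 3 genes at 42.1% to 45.4%. Their motif matches are thus not independent of each other. The AP-1 motif occurred in 2 of the 8 genes, CXCL8 and IL1A, against 7.71% of all promoters. The C/EBP motif occurred in IL6, in IL1B and, on the minus strand, in CXCL2, against 10.5% of all promoters. The window of CCL20 held none of the 3 motifs, which says only that these letters are not in it. LIF and CCL2 were not matched. A motif match is a description of the letters and not a bound site.

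**Figure D1:**
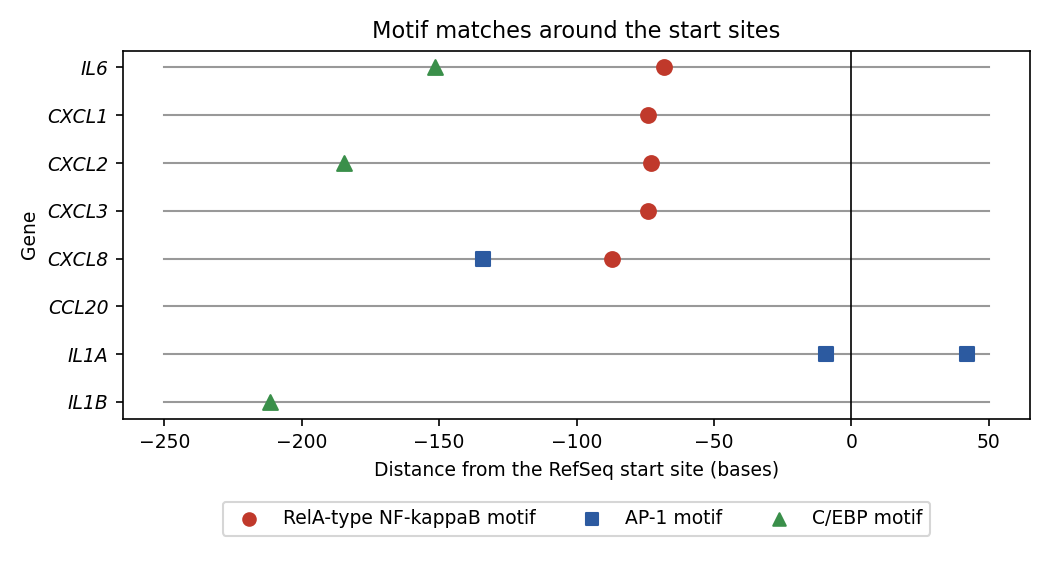
Positions of the 3 motifs in the promoters of 8 genes, with the distance from the RefSeq start site in bases on the horizontal axis and 1 line per gene; for IL1A the promoter with the more upstream start site is drawn. The NF-kappaB motifs of IL6, CXCL1, CXCL2, CXCL3 and CXCL8 all begin between 91 and 72 bases before the start site.

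Levels are in TPM, a transcript unit scaled for transcript length and to the same total in each library, so that levels can be compared between genes. TPM keeps no read depth, so the counting error of each value is unknown. Since each population has 1 library, none of the differences can be checked against replicates and no test was run. The members together reached 699.7 TPM in iOVCAR-3-OSKM and 468 TPM in SP, against 324 TPM in OVCAR-3. The median member stood at 40.1 TPM in iOVCAR-3-OSKM and 27.0 TPM in SP, against 19.4 TPM in OVCAR-3. CXCL1 was the highest member in every library, with 43.1% of the summed level in iOVCAR-3-OSKM and 46.1% in SP, against 59.5% in OVCAR-3. IL1A was the lowest member in every library. Members at 10 TPM or more numbered 8 in iOVCAR-3-OSKM and 7 in SP, against 6 in OVCAR-3.

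**Figure D2:**
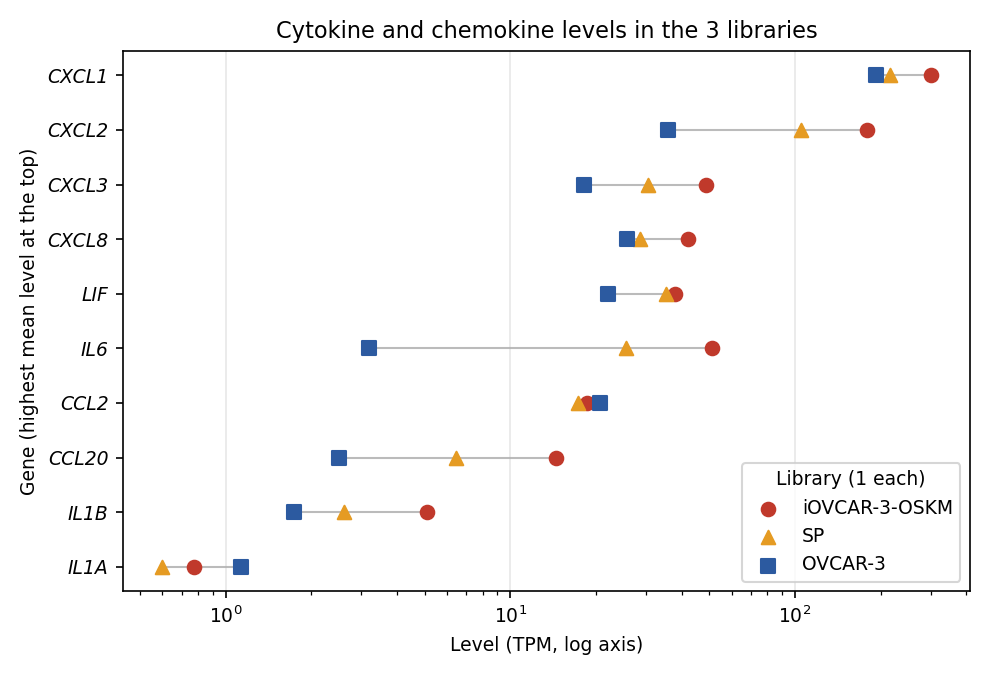
Level of each of the 10 genes in TPM (log axis), with 1 symbol per library and the genes ordered by their mean level. In 8 genes the iOVCAR-3-OSKM symbol is the highest and the OVCAR-3 symbol the lowest. IL6 spans the widest range, 51.2 TPM in iOVCAR-3-OSKM and 25.4 TPM in SP against 3.19 TPM in OVCAR-3.

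Differences were taken on the scale of log2(TPM + 0.3), on which low genes appear to differ less than they do, and a difference beyond 1 in size counts as higher or lower. Of the 10 genes, iOVCAR-3-OSKM had 5 higher and 0 lower relative to OVCAR-3, namely IL6, CCL20, CXCL2, CXCL3 and IL1B. Of the 20380 genes measured, meaning those that averaged 0.3 TPM or more over the 3 libraries, 15.9% were higher and 8.76% lower in this comparison. In SP against OVCAR-3, 3 of the 10 genes were higher and 0 lower, namely IL6, CXCL2 and CCL20, beside 3.09% higher and 12.8% lower among all measured genes. In iOVCAR-3-OSKM against SP, 2 were higher and 0 lower, namely CCL20 and IL6, beside 19.4% higher and 2.54% lower among all. The members were selected with these comparisons known, so nothing is read from these counts. The comparisons with OVCAR-3 share that library, and all 3 comparisons share libraries in pairs.

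The median difference over the members was 1.09 in iOVCAR-3-OSKM against OVCAR-3, 0.60 in SP against OVCAR-3 and 0.62 in iOVCAR-3-OSKM against SP, on the log2(TPM + 0.3) scale. Over all measured genes the medians were 0.03, -0.14 and 0.19. Quantile normalization, which gives every library the same distribution of levels, put these medians over all genes at -0.10, 0.02 and -0.14. It also changed the split of calls over all genes to 2646 higher and 2809 lower in iOVCAR-3-OSKM against OVCAR-3, instead of 3244 and 1785. In SP against OVCAR-3 the split became 1092 and 1530 instead of 630 and 2617, and in iOVCAR-3-OSKM against SP 2466 and 2204 instead of 3959 and 518. With median ratio scaling the SP split was 853 and 2043. The 5 and 3 members called against OVCAR-3 were the same number under each of these scalings. A level highest in iOVCAR-3-OSKM, then SP, then OVCAR-3 was found in 8 of the 10 members and in 18.1% of all measured genes. IL1A and CCL2 were the exceptions, and both were highest in OVCAR-3.

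**Figure D3:**
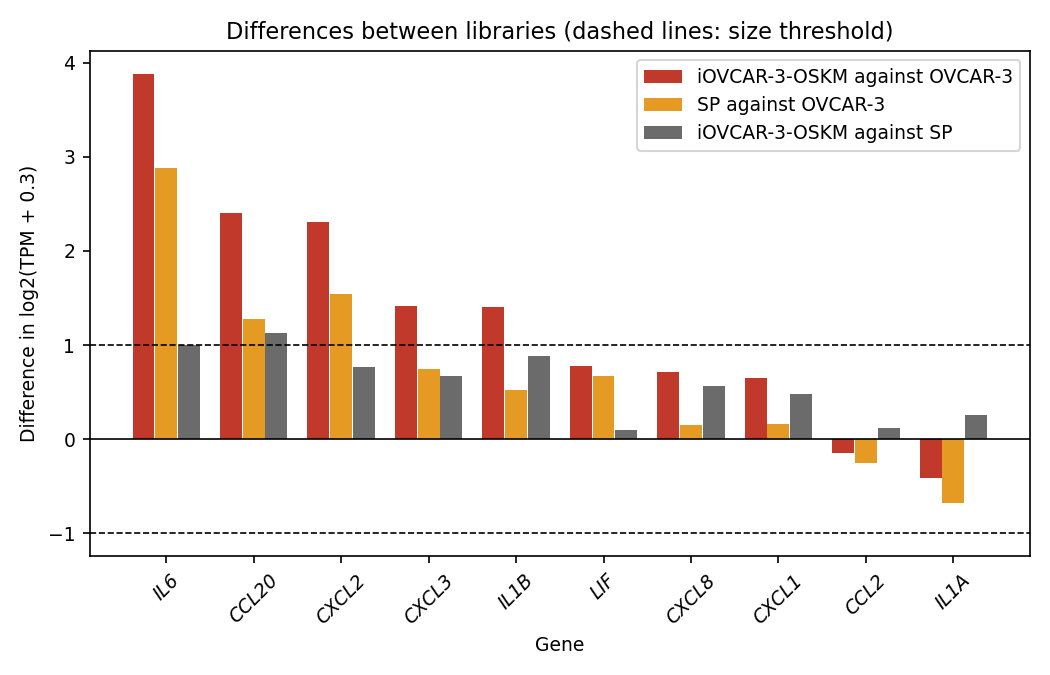
Difference in log2(TPM + 0.3) for each gene in the 3 comparisons (bars, 1 library per population), with dashed lines at 1 and -1. IL6, CCL20, CXCL2, CXCL3 and IL1B pass 1 in iOVCAR-3-OSKM against OVCAR-3, IL6 reaches 3.88, and the IL6 bar for iOVCAR-3-OSKM against SP ends on the line.

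IL6, the cytokine that gives the family its name, differed most. Its level was 51.2 TPM in iOVCAR-3-OSKM and 25.4 TPM in SP, against 3.19 TPM in OVCAR-3. Both derived populations were thus well above the parental line, with a ratio of 16.1 for iOVCAR-3-OSKM over OVCAR-3 and 7.98 for SP over OVCAR-3. The differences were 3.88 in iOVCAR-3-OSKM and 2.88 in SP on the log2(TPM + 0.3) scale. In percentile terms IL6 stood higher than 82.7% of measured genes in iOVCAR-3-OSKM and 71.9% in SP, against 36.8% in OVCAR-3. Between iOVCAR-3-OSKM and SP the difference was 1.0, at the threshold itself, and over the alternatives it lay between 0.83 and 1.02. The gene lies on chromosome 7 (22725884 to 22732002, plus strand). It overlaps 2 genes on the opposite strand, STEAP1B at 3.22 TPM in iOVCAR-3-OSKM and 0.348 TPM in SP against 0.678 TPM in OVCAR-3, and the antisense gene IL6-AS1 at 0.502 TPM in iOVCAR-3-OSKM and 0.868 TPM in SP against 0.261 TPM in OVCAR-3. The sources used here do not say whether strand was used in counting, so a share of reads from these partners cannot be told apart from IL6. Their levels were below that of IL6 in every library.

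LIF, which sustains self-renewal of mouse embryonic stem cells and which feeder fibroblasts are known to secrete, differed less. It stood at 37.9 TPM in iOVCAR-3-OSKM and 35.4 TPM in SP, against 22.1 TPM in OVCAR-3. Both differences from OVCAR-3, 0.77 in iOVCAR-3-OSKM and 0.68 in SP, stayed within the threshold, and between iOVCAR-3-OSKM and SP the difference was 0.10. In OVCAR-3 the order of the 2 cytokines was LIF above IL6, with 22.1 and 3.19 TPM, whereas in iOVCAR-3-OSKM IL6 was above LIF with 51.2 and 37.9 TPM. LIF lies on chromosome 22 (30240453 to 30246759, minus strand) and is overlapped on the other strand by AC004264.1, which had 3.39 TPM in iOVCAR-3-OSKM and 2.61 TPM in SP against 2.17 TPM in OVCAR-3, and by LIF-AS1, which had 0.0968 TPM in iOVCAR-3-OSKM and 0.261 TPM in SP and was listed at 0 in OVCAR-3. Its neighbour OSM, another ligand of the family, had 0.203 TPM in iOVCAR-3-OSKM and 0.107 TPM in SP and was listed at 0 in OVCAR-3.

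The IL1 genes were low. IL1B, the secreted form that is made as a precursor and cut by caspase 1, had 5.08 TPM in iOVCAR-3-OSKM and 2.61 TPM in SP, against 1.73 TPM in OVCAR-3. The difference from OVCAR-3 was 1.40 in iOVCAR-3-OSKM and 0.52 in SP, so that only the iOVCAR-3-OSKM value passed the threshold. IL1A, the form that is active without cleavage and is released by damaged cells, had 0.774 TPM in iOVCAR-3-OSKM and 0.597 TPM in SP, against 1.14 TPM in OVCAR-3. Its differences of -0.42 in iOVCAR-3-OSKM and -0.68 in SP were within the threshold and opposite in sign to those of IL1B. The SP value of IL1A became 0.31 when genes were compared within 10 classes of transcript GC content, an alternative chosen after the data were seen. IL1A and IL1B lie next to each other on chromosome 2 (112773925 to 112784493 and 112829751 to 112836816, both minus strand).

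Among the ELR chemokines, CXCL2 differed most. It had 179 TPM in iOVCAR-3-OSKM and 105 TPM in SP, against 35.8 TPM in OVCAR-3, that is 5.0 and 2.94 times the OVCAR-3 level. The differences were 2.31 in iOVCAR-3-OSKM and 1.55 in SP, both past the threshold. CXCL3 had 48.8 TPM in iOVCAR-3-OSKM and 30.6 TPM in SP, against 18.2 TPM in OVCAR-3. Only the iOVCAR-3-OSKM difference of 1.41 passed the threshold, while the SP difference was 0.74.

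CXCL1 and CXCL8 were high in the parental line and differed little. CXCL1 had 301.5 TPM in iOVCAR-3-OSKM and 216 TPM in SP, against 193 TPM in OVCAR-3, with differences of 0.65 and 0.16. CXCL1 was above 96.2% of measured genes already in OVCAR-3. CXCL8 had 42.3 TPM in iOVCAR-3-OSKM and 28.5 TPM in SP, against 25.7 TPM in OVCAR-3, with differences of 0.71 and 0.15. Compared within the GC classes, the CXCL8 differences were 1.12 in iOVCAR-3-OSKM and 1.14 in SP, past the threshold in both. CXCL8 carries the same NF-kappaB letters as CXCL1, CXCL2 and CXCL3 in the sequences above, and its summed level with these 3 genes was 572 TPM in iOVCAR-3-OSKM and 380 TPM in SP, against 272 TPM in OVCAR-3.

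CXCL1, CXCL2 and CXCL3 are close paralogs, and reads can be shared between them. Their coding sequences of 324 bases were identical at 93.5% of aligned positions between CXCL1 and CXCL2, at 94.4% between CXCL2 and CXCL3 and at 90.7% between CXCL1 and CXCL3. Of 1048 windows of 50 bases in the CXCL1 transcript, 60 occurred unchanged in CXCL2 and 6 in CXCL3, and 54 of the 1169 windows of CXCL2 occurred in CXCL3. None of the windows of these 3 genes occurred in CXCL8. The division of the level among CXCL1, CXCL2 and CXCL3 is therefore less certain than their sum, and the sources used here do not say how multiply mapped reads were assigned.

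CCL20 had 14.5 TPM in iOVCAR-3-OSKM and 6.45 TPM in SP, against 2.49 TPM in OVCAR-3. It was 5.81 times the OVCAR-3 level in iOVCAR-3-OSKM and 2.59 times in SP, with differences of 2.41 and 1.27. The difference between iOVCAR-3-OSKM and SP was 1.13, and it lay at 0.64 within the GC classes. Within the same classes the SP difference of CCL20 from OVCAR-3 was 2.26. CCL2 had 18.7 TPM in iOVCAR-3-OSKM and 17.2 TPM in SP, against 20.7 TPM in OVCAR-3. Its differences of -0.14 and -0.26 were smaller in size than those of IL1A, the other member with negative values in both comparisons. CCL2 and IL6 thus had unlike values in these libraries. CCL20 lies on chromosome 2 (227805739 to 227817564, plus strand) and CCL2 on chromosome 17 (34255218 to 34257203, plus strand), away from the CXC genes.

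Position was not used to select the members. CXCL8, CXCL1, CXCL3 and CXCL2 lie in 1 cluster of 9 chemokine genes that spans 359 kb of chromosome 4, with CXCL8 at 73740541 to 73743716 and CXCL1 at 73869393 to 73871308 on the plus strand, and CXCL3 at 74036589 to 74038807 and CXCL2 at 74097040 to 74099196 on the minus strand. The other 5 genes of the cluster were low in OVCAR-3. CXCL6 had 9.50 TPM in iOVCAR-3-OSKM and 0.110 TPM in SP and was listed at 0 in OVCAR-3. CXCL5 had 5.49 TPM in iOVCAR-3-OSKM and was listed at 0 in SP and OVCAR-3. PF4, the platelet chemokine, had 1.60 TPM in iOVCAR-3-OSKM and was listed at 0 in SP, against 0.120 TPM in OVCAR-3. PPBP and PF4V1 were listed at 0 in all 3 libraries. In SP, the members of the cluster were thus at 28.5 TPM or more and the other 5 genes at 0.110 TPM or less.

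In the IL1 cluster of 9 genes on chromosome 2, IL36G, IL36A, IL36B and IL1F10 were listed at 0 in all 3 libraries. IL1RN, which encodes the antagonist of the IL1 receptor, had 2.52 TPM in iOVCAR-3-OSKM and 0.858 TPM in SP, against 2.23 TPM in OVCAR-3. Its SP difference of -1.13 passed the threshold and was opposite in sign to that of IL1B. It was -0.79 under quantile normalization. The 5 neighbours of CCL2 on chromosome 17, CCL7, CCL11, CCL8, CCL13 and CCL1, were listed at 0 in every library.

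The receptors through which the members act were described from lists chosen with earlier results known. Of the 7 measured receptors of the IL6 family, iOVCAR-3-OSKM had 1 higher and 2 lower relative to OVCAR-3, with a median difference of -0.40. In SP against OVCAR-3, 0 were higher and 2 lower, with a median of -0.46. IL6ST, the gp130 chain that IL6 and LIF share, had 6.31 TPM in iOVCAR-3-OSKM and 11.8 TPM in SP, against 41.2 TPM in OVCAR-3. The difference of IL6ST was -2.65 in iOVCAR-3-OSKM and -1.78 in SP, so the level was lowest where that of IL6 was highest. LIFR had 4.60 TPM in iOVCAR-3-OSKM and 3.33 TPM in SP, against 10.1 TPM in OVCAR-3, with differences of -1.08 and -1.51. IL6R, the ligand-binding chain for IL6, had 6.66 TPM in iOVCAR-3-OSKM and 9.84 TPM in SP, against 10.6 TPM in OVCAR-3, within the threshold. CNTFR, which binds ciliary neurotrophic factor, was the receptor higher in iOVCAR-3-OSKM, at 5.05 TPM, and was listed at 0 in SP, against 0.112 TPM in OVCAR-3.

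IL6ST and LIFR belong to the GC-poorest of 3 equal groups of protein-coding genes, and GC content moved with the comparisons. The median difference of that group was -0.54 in SP against OVCAR-3 and -0.22 in iOVCAR-3-OSKM against OVCAR-3, while the GC-richest group had medians of 0.05 and 0.22. Within the 10 GC classes, IL6ST was at -2.24 in iOVCAR-3-OSKM and -0.79 in SP, and LIFR at -0.67 and -0.52, so that only the iOVCAR-3-OSKM value of IL6ST stayed past the threshold. Of the 10 members, IL6, IL1A, CXCL8, CCL2 and CCL20 also belong to the GC-poorest group. Within the classes, the values of IL6 were 3.86 in iOVCAR-3-OSKM and 3.01 in SP.

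IL11 and EBI3 are further ligand genes of the IL6 family. IL11 had 1.93 TPM in iOVCAR-3-OSKM and 0.785 TPM in SP, against 0.414 TPM in OVCAR-3, with differences of 1.64 and 0.60. EBI3, a subunit of IL27, had 4.48 TPM in iOVCAR-3-OSKM and 4.07 TPM in SP, against 1.72 TPM in OVCAR-3. It was past the threshold in both comparisons, although not in SP with a pseudocount of 1 (0.90) or in iOVCAR-3-OSKM under quantile normalization (0.85).

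Of 16 signal transducers and feedback genes of the IL6 family, iOVCAR-3-OSKM had 2 higher and 0 lower relative to OVCAR-3, with a median of -0.08, and SP had 0 higher and 2 lower, with a median of -0.01. SOCS3, a feedback inhibitor that is induced through STAT3, had 84.1 TPM in iOVCAR-3-OSKM and 146 TPM in SP, against 145 TPM in OVCAR-3. SOCS3 did not follow the levels of IL6, and its differences of -0.78 and 0.01 were within the threshold. SOCS1 had 13.5 TPM in iOVCAR-3-OSKM and 11.1 TPM in SP, against 5.85 TPM in OVCAR-3, with a difference of 1.16 in iOVCAR-3-OSKM. SOCS2 had 14.9 TPM in iOVCAR-3-OSKM and 2.46 TPM in SP, against 6.04 TPM in OVCAR-3, so its differences of 1.27 and -1.20 were opposite in sign. JAK2 had 2.26 TPM in iOVCAR-3-OSKM and 1.58 TPM in SP, against 4.60 TPM in OVCAR-3, with a difference of -1.38 in SP that was -0.97 under quantile normalization.

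Of 6 measured receptors of the IL1 family, iOVCAR-3-OSKM had 0 higher and 2 lower relative to OVCAR-3, and SP had 1 higher and 1 lower. IL1R1, the signalling receptor for IL1A and IL1B, had 144 TPM in iOVCAR-3-OSKM and 226 TPM in SP, against 210.0 TPM in OVCAR-3, within the threshold. Its level was above that of either ligand in every library. IL1RAP, the second chain, had 12.1 TPM in iOVCAR-3-OSKM and 14.1 TPM in SP, against 30.3 TPM in OVCAR-3, with differences of -1.30 and -1.09. The SP value of IL1RAP was within the threshold under median ratio scaling (-0.93), quantile normalization (-0.81) and within GC classes (-0.10). IL1R2, a decoy receptor that binds IL1 without signalling, had 14.2 TPM in iOVCAR-3-OSKM and 32.8 TPM in SP, against 12.1 TPM in OVCAR-3, with a difference of 1.42 in SP, while that in iOVCAR-3-OSKM was 0.22. The decoy was thus higher in SP, where the signalling chain IL1R1 was not. IL18R1, the receptor of the related cytokine IL18, had 5.86 TPM in iOVCAR-3-OSKM and 10.4 TPM in SP, against 15.7 TPM in OVCAR-3, with a difference of -1.38 in iOVCAR-3-OSKM. CASP1, which cleaves the IL1B precursor, had 5.17 TPM in iOVCAR-3-OSKM and 8.52 TPM in SP, against 10.7 TPM in OVCAR-3, with differences of -1.01 and -0.32. The iOVCAR-3-OSKM value of CASP1 was within the threshold under median ratio scaling (-0.99), with a pseudocount of 1 (-0.93) and within GC classes (-0.95). Under quantile normalization it was -1.22. Of 10 measured adaptors of the IL1 and Toll-like receptors, TAB3 alone was past the threshold, at 6.27 TPM in SP against 14.8 TPM in OVCAR-3, and its difference of -1.21 was -0.80 under quantile normalization.

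The receptors through which the chemokine members signal, CXCR1, CXCR2, CCR2 and CCR6, were at or near 0. CXCR1 and CCR2 were listed at 0 in all 3 libraries. CXCR2 had 0.181 TPM in iOVCAR-3-OSKM and was listed at 0 in SP and OVCAR-3, and CCR6 had 0.0260 TPM in iOVCAR-3-OSKM and was listed at 0 in SP and OVCAR-3. ACKR2, an atypical receptor that takes up CCL2 without signalling, was the highest receptor of the list, with 50 TPM in iOVCAR-3-OSKM and 70.3 TPM in SP, against 67.2 TPM in OVCAR-3, within the threshold. It was named after its values were seen. Of 22 chemokine receptors, 6 were measured, of which iOVCAR-3-OSKM had 2 higher and 1 lower relative to OVCAR-3, and SP had 1 higher and 0 lower. CXCR4 had 12.4 TPM in iOVCAR-3-OSKM and 5.22 TPM in SP, against 4.48 TPM in OVCAR-3. ACKR3, an atypical receptor that takes up CXCL12, had 4.05 TPM in iOVCAR-3-OSKM and 1.15 TPM in SP, against 0.229 TPM in OVCAR-3. CXCL12, the ligand of CXCR4 and ACKR3, had 18.5 TPM in iOVCAR-3-OSKM and 0.0604 TPM in SP, against 0.168 TPM in OVCAR-3.

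Chemokines outside the set did not share 1 direction. Of those named here, CXCL5, CXCL6, CXCL12 and PF4 were past the threshold upwards in iOVCAR-3-OSKM against OVCAR-3. CXCL10 and CCL28 were past it downwards in the same comparison. CXCL10, an interferon-induced chemokine, was listed at 0 in iOVCAR-3-OSKM and had 0.140 TPM in SP, against 2.23 TPM in OVCAR-3, the reverse order of CXCL2. CCL28, an epithelial chemokine, was the highest CC chemokine, with 167 TPM in iOVCAR-3-OSKM and 284 TPM in SP, against 342 TPM in OVCAR-3. Its difference from OVCAR-3 was -1.03 in iOVCAR-3-OSKM and -0.27 in SP. Of the 3 CC chemokines at 1 TPM or more in every library, CCL20 was thus past the threshold upwards in both comparisons with OVCAR-3, while CCL2 and CCL28 had negative differences.

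Messengers of this group are known targets of decay factors that bind AU-rich elements. The heptamer TATTTAT, read from the 3′ UTR of the longest protein-coding GENCODE transcript, was found in 9 of the 10 members and in 34.0% of 14449 measured protein-coding genes. It occurred at least 2 times in 80% of the members and in 14.4% of all. CXCL2 had the most copies with 8, LIF had 5, CXCL1, CXCL8 and IL1B had 4 each, and IL6, CXCL3 and IL1A had 3 each. CCL20 had 1 copy and CCL2 had none. The median 3′ UTR of the members was not longer than that of all genes, with 690 bases against 1250 bases. This motif was chosen after the values were seen, and a relation of its copy number to the differences of the members was not tested.

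ZFP36, which encodes tristetraprolin, a protein that binds this element and promotes decay, had 692 TPM in iOVCAR-3-OSKM and 427 TPM in SP, against 60.9 TPM in OVCAR-3. Its differences of 3.50 and 2.80 were close in size to those of IL6, so the messenger of a decay factor was higher in the same libraries as its target. Of 12 decay and stability factors, iOVCAR-3-OSKM had 1 higher and 1 lower relative to OVCAR-3, and SP had 2 higher and 3 lower. TIA1, a translational repressor that binds AU-rich elements, had 86.3 TPM in iOVCAR-3-OSKM and 19.3 TPM in SP, against 93.7 TPM in OVCAR-3. RC3H2, a roquin that degrades cytokine messengers through stem loops, had 15.9 TPM in iOVCAR-3-OSKM and 14.5 TPM in SP, against 34.9 TPM in OVCAR-3.

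Of 19 genes of the NF-kappaB pathway and its feedback, iOVCAR-3-OSKM had 5 higher and 1 lower relative to OVCAR-3, with a median of 0.11, and SP had 3 higher and 2 lower, with a median of -0.01. TNF had 39.8 TPM in iOVCAR-3-OSKM and 24.5 TPM in SP, against 3.38 TPM in OVCAR-3, with differences of 3.45 and 2.76. NFKBIA, the inhibitor that NF-kappaB induces, had 546 TPM in iOVCAR-3-OSKM and 415 TPM in SP, against 253 TPM in OVCAR-3. The feedback inhibitor thus had the library order of IL6, with differences of 1.11 and 0.72. TNFAIP3, a deubiquitinase that ends the signal, had 139 TPM in iOVCAR-3-OSKM and 93.3 TPM in SP, against 43.4 TPM in OVCAR-3. NFKBIE, another inhibitor, had 10.8 TPM in iOVCAR-3-OSKM and 6.06 TPM in SP, against 2.43 TPM in OVCAR-3. These 2 genes had the same order and were past the threshold in both comparisons. REL, a subunit, had 3.29 TPM in iOVCAR-3-OSKM and 2.08 TPM in SP, against 7.83 TPM in OVCAR-3. Its differences of -1.18 and -1.77 were -0.77 and -0.78 within GC classes.

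Of 12 AP-1 and C/EBP factors, iOVCAR-3-OSKM had 6 higher and 1 lower relative to OVCAR-3, with a median of 1.17, and SP had 6 higher and 0 lower, with a median of 0.84. FOS had 774 TPM in iOVCAR-3-OSKM and 440 TPM in SP, against 19.9 TPM in OVCAR-3. FOSB had 340 TPM in iOVCAR-3-OSKM and 179 TPM in SP, against 1.12 TPM in OVCAR-3. ATF3 had 108 TPM in iOVCAR-3-OSKM and 61.1 TPM in SP, against 6.07 TPM in OVCAR-3. CEBPB, the C/EBP factor known for binding the IL6 promoter, had 205 TPM in iOVCAR-3-OSKM and 338 TPM in SP, against 425 TPM in OVCAR-3, an order opposite to that of IL6, with differences of -1.05 and -0.33. FOS, FOSB, ATF3 and ZFP36 are immediate early genes, whose messengers are induced within minutes when cells are handled or stimulated. Their part in the values of IL6 and the chemokines was not tested.

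The profile most like that of CXCL1, the member with the highest mean level, was sought among 16415 genes averaging 1 TPM or more, by the distance between log2(TPM + 0.3) profiles centred over the 3 libraries. The 5 nearest genes were ELP5, RAB7B, PPM1F, PAGR1 and HNRNPM, at distances of 0.0041 to 0.0149. Such a measure rests on 3 values per gene. The nearest gene, ELP5, had 32.1 TPM in iOVCAR-3-OSKM and 22.8 TPM in SP, against 20.4 TPM in OVCAR-3. For IL6, a choice made after the values were seen, the nearest genes were C9orf129, ATF3, ZFP36, TNF and TNS4, at distances of 0.24 to 0.33.

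The labelled cell types were checked on marker lists. The 10 epithelial and serous markers of OVCAR-3 were measured in every library and summed to 11062 TPM in iOVCAR-3-OSKM and 16243 TPM in SP, against 11091 TPM in OVCAR-3. The keratins KRT7, KRT8, KRT18 and KRT19 were the highest of this list in every library and dominate the sum. The median difference of the list from OVCAR-3 was -0.24 in iOVCAR-3-OSKM and 0.01 in SP. PAX8 had 556 TPM in iOVCAR-3-OSKM and 729 TPM in SP, against 899.5 TPM in OVCAR-3, within the threshold. KRT19 alone was past the threshold, upwards in SP. The 6 pluripotency markers summed to 1840 TPM in iOVCAR-3-OSKM and 128 TPM in SP, against 218 TPM in OVCAR-3. SOX2 made up nearly all of the pluripotency sum in SP and OVCAR-3, with 245 TPM in iOVCAR-3-OSKM and 125 TPM in SP, against 216 TPM in OVCAR-3. The other 5 markers, such as POU5F1 with 634 TPM in iOVCAR-3-OSKM and 3.65 TPM in SP against 2.05 TPM in OVCAR-3, were higher in iOVCAR-3-OSKM alone. Leukocytes are a classical source of IL1B, CXCL8 and CCL20. The 16 genes of the leukocyte list other than S100A8 and S100A9, which epithelial cells also make, summed to 6.20 TPM in iOVCAR-3-OSKM and 2.56 TPM in SP, against 2.26 TPM in OVCAR-3. The list also holds HBB, a globin gene of red cells. HBB had 0.272 TPM in iOVCAR-3-OSKM and 0.133 TPM in SP and was listed at 0 in OVCAR-3. The pan-leukocyte gene PTPRC stood at 0.0582 TPM in iOVCAR-3-OSKM and 0.0937 TPM in SP, against 0.0713 TPM in OVCAR-3, and LYZ was listed at 0 in iOVCAR-3-OSKM. Of the 18 genes of the list, S100A8 and S100A9 included, 5 were measured. Set against OVCAR-3, iOVCAR-3-OSKM had 3 of these higher and 0 lower, and SP had 1 higher and 2 lower. CD14, a monocyte marker, had 2.21 TPM in iOVCAR-3-OSKM and 0.945 TPM in SP, against 0.298 TPM in OVCAR-3, with differences of 2.07 and 1.06. CSF1R, a receptor of macrophages, had 1.03 TPM in iOVCAR-3-OSKM and 0.0700 TPM in SP and was listed at 0 in OVCAR-3. The part of such cells in the values of the members was not tested.

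Fibroblast markers moved with iOVCAR-3-OSKM. Of 10 markers, 8 were measured, of which 7 were higher and 1, FAP, was lower in this library relative to OVCAR-3, and the whole list summed to 89.1 TPM in iOVCAR-3-OSKM and 9.21 TPM in SP, against 9.50 TPM in OVCAR-3. THY1 had 31.3 TPM in iOVCAR-3-OSKM and 0.220 TPM in SP, against 0.0203 TPM in OVCAR-3, and COL1A2 had 19.0 TPM in iOVCAR-3-OSKM and was listed at 0 in SP, against 0.0202 TPM in OVCAR-3. DCN, a defining marker, was near 0 with 0.0769 TPM in iOVCAR-3-OSKM and was listed at 0 in SP and OVCAR-3. Fibroblasts are known to make IL6, LIF, CXCL1, CXCL5, CXCL6, CXCL12 and CCL2, and mouse feeder cells were present in this culture alone. Their part in the iOVCAR-3-OSKM values was not tested. In these bulk libraries, more cells that express a gene and more messenger per cell cannot be told apart.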

How the data were processed

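RNA-seq of 3 libraries was used, with 1 library each for iOVCAR-3-OSKM, SP and OVCAR-3. The authors deposited gene-level TPM. The study's methods and processing notes name bcl2fastq (version 2.20), Trimmomatic (version 0.36), HISAT2 and StringTie. The sources used here do not give the genome build or the HISAT2 version. All 10 members overlapped their GENCODE release 29 positions on GRCh38, with starts at most 35 bases and ends at most 97 bases apart, and 99.8% of 58453 shared genes overlapped theirs. Coordinates are those of the deposited table, except for promoters (RefSeq, GRCh38.p14). Values of 0.0001 TPM in the deposited table were read as listed at 0.

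The 10 members and all gene lists were chosen with earlier results of these data known. Where a gene name was duplicated, the entry with the highest mean TPM was used. The difference in log2(TPM + 0.3) was computed from the deposited TPM, and genes averaging 0.3 TPM or more (20380 of 60671) were measured. A gene was called past 1 in size. TPM holds no read counts and no depth, so neither a count test nor a counting interval was possible. Named genes were all members, up to 4 genes of each list past the threshold against OVCAR-3 with at least 1 TPM in the higher library, and the members' receptors with SOCS3, NFKBIA, ZFP36, FOS and CEBPB. A gene that this rule names is not reported here. Alternatives were pseudocounts of 0.1 and 1, no filter, a ratio without pseudocount, omission of mitochondrial and ribosomal protein genes, scaling by median ratios, quantile normalization, a threshold of 2, and, added after the data were seen, centring within 10 classes of transcript GC content. Transcript features came from GENCODE. The code was run on simulated data with known shifts. This checks the calculation and not the calls, since the spread between replicate libraries is unknown. Computations used pandas 2.3.3, numpy 2.4.6 and Python 3.11.15, with matplotlib 3.10.9 and Biopython 1.88.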

Additional observations from a re-analysis of the deposited data

How the results depend on the processing

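The number of members higher in iOVCAR-3-OSKM than in SP, 2, was 1 with a pseudocount of 1, 1 with median ratio scaling, 0 with quantile normalization, 0 with a threshold of 2 and 0 within 10 classes of GC content. With the threshold of 2, the number higher was 3 in iOVCAR-3-OSKM against OVCAR-3 instead of 5, and 1 in SP against OVCAR-3 instead of 3, as that rule asks for a larger difference. Under every other alternative the 2 comparisons with OVCAR-3 kept at least 5 and 3 members higher and 0 lower, and within 10 classes of GC content the counts were 6 and 4. The median over the members lay between 0.93 and 1.18 in iOVCAR-3-OSKM against OVCAR-3 and between 0.53 and 0.84 in SP against OVCAR-3. Over 8 alternatives, 1598 values of single named genes were recomputed, of which 115 moved by more than 0.58 and 0 of the called values changed sign. The threshold of 2 was left out here because it does not change these values. The values without the filter equal the main values by construction and could not move. Within the GC classes, the iOVCAR-3-OSKM differences from OVCAR-3 of IL1RAP (-0.89), IL18R1 (-0.97), CASP1 (-0.95), CCL28 (-0.96), SOCS1 (0.96) and NFKBIA (0.92) were no longer past 1, and under quantile normalization the SP difference of SOCS2 was -0.78 and that of RC3H2 -0.98. Counts over all genes depended on the settings. With a threshold of 2, the calls in iOVCAR-3-OSKM against OVCAR-3 were 1646 higher and 242 lower, 104 and 267 in SP against OVCAR-3, and 1743 and 59 in iOVCAR-3-OSKM against SP. With a pseudocount of 1 they were 2449 and 1064, 291 and 1618, and 2897 and 177. With median ratio scaling they were 3292 and 1690, 853 and 2043, and 3541 and 708. Under quantile normalization iOVCAR-3-OSKM against SP had 2466 higher and 2204 lower. Each of these counts is out of 20380 genes. Calls over all genes were not counted within the GC classes, so the member counts there have no such share beside them. No paired analysis was possible because each population had 1 library. The depth of the libraries is unknown, so low genes such as IL1A, CXCR2 and CCR6 carry the largest unknown error.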

Other observations

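Endothelial markers, which were not compared in the description of the cytokines, summed to 31.1 TPM in iOVCAR-3-OSKM and 12.3 TPM in SP, against 7.61 TPM in OVCAR-3. KDR, the main receptor for vascular endothelial growth factor, made up most of this with 24.3 TPM in iOVCAR-3-OSKM and 7.11 TPM in SP, against 4.80 TPM in OVCAR-3. S100A9, a subunit of calprotectin that attracts neutrophils as the ELR chemokines do, had 499.7 TPM in iOVCAR-3-OSKM and 66.3 TPM in SP, against 155 TPM in OVCAR-3. Its partner S100A8 had 31.3 TPM in iOVCAR-3-OSKM and 5.09 TPM in SP, against 27.1 TPM in OVCAR-3. Both subunits were thus lowest in SP, where CXCL1, CXCL2, CXCL3 and CXCL8 lay between the other libraries. IL18, a cytokine of the IL1 family, had 28.4 TPM in iOVCAR-3-OSKM and 44.3 TPM in SP, against 28.0 TPM in OVCAR-3, a level above those of IL1A and IL1B in every library.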
